A study of Rhodotorula toruloides with 18 samples.

Results

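The comparison described here is the response of the cbr1 deletion strain of Rhodotorula toruloides to succinate, set against the same strain kept without a carbon source. It was taken from the library names, and it covers 6 of the 18 libraries of the series, 3 on succinate and 3 without carbon. R. toruloides is an oleaginous basidiomycete yeast, one that stores much of its carbon as oil. The deletion strain, in the IFO0880 background, carried yku70::HygR and cbr1::NatR, drug resistance cassettes at these genes. The wild type of the series carried yku70::HygR as well, so a changed yku70 was common to every library. Loss of yku70 is commonly used to raise the rate of targeted integration in this yeast. The sources used here do not say whether the deletion strain came from 1 clone. Cells were grown overnight in rich glucose medium at 28 degrees C, washed, and held for 8 h in constant light and shaking in yeast nitrogen base. The groups used were the deletion strain with 1% succinate, with 1% cellobiose and with no carbon, and the wild type in the same media. Messenger RNA was measured as TPM, a transcript abundance corrected for length that adds up to one fixed total in every library.

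Succinate is a dicarboxylic acid of the tricarboxylic acid cycle. A yeast with succinate as its carbon source has to take it up, oxidise part of it for energy, and make its sugars from it by gluconeogenesis. Cells without carbon live on internal stores, which in an oleaginous yeast include lipid, and typically run recycling processes such as autophagy. The series concerns a transcription factor, Cbr1, in the use of carbon sources and in carbon catabolite repression, the shutting down of genes for poorer carbon sources while a preferred one is present. The comparison asks which genes answered to succinate when Cbr1 was missing.

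The file names its 8484 genes by identifier only, and a reference table of strain NP11 with 8171 genes holds 0 of these identifiers. Genes are therefore given by identifier with no name, role or position. For the same reason the cbr1 transcript was not identified, and the labels of the deletion libraries were not checked against it. The number of reads behind the TPM values is unknown. Tested were the 7938 of 8484 genes whose TPM averaged 1 or more over the series.

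The 3 succinate libraries of the deletion strain differed from each other more than the 3 without carbon did. Over the tested genes, which are no independent replicates, Pearson's r of log2(TPM + 1) ran from 0.921 to 0.959 within the succinate group, against 0.957 to 0.985 within the no carbon group. Replicate 3 on succinate had r of 0.930 to 0.987 with the wild type on succinate, against 0.921 and 0.954 with its own group. Replicate 1 on succinate had r of 0.938 to 0.952 with the deletion strain on cellobiose and 0.922 to 0.960 with the wild type on cellobiose, against 0.921 and 0.959 with its own group. Each succinate library was far from those without carbon, with r of 0.781 to 0.888 to the no carbon libraries of the deletion strain. Counts of genes that moved by over 1.5 times without replicate 3 on succinate, or without another library, are given below with and without it.

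Succinate changed 2281 genes of the deletion strain in TPM, and most of them fell. A call needed an adjusted p under 0.05 in limma, corrected by Benjamini-Hochberg over all tested genes, and a log2 difference of 1 or more in size, a doubling or halving. By this rule 539 genes rose, 6.79% of those tested, and 1742 fell, 21.9%, which together made 28.7%. The genes that rose had a median difference of 1.55 on the log2(TPM + 1) scale, and the genes that fell one of -1.55. The libraries of the groups did not overlap for 523 of the 539 and for 1694 of the 1742. Over all tested genes, 13.1% were higher in each succinate library than in any no carbon library and 37.5% were lower. The genes that rose had a median level of 71.2 TPM on succinate and 20.4 TPM without carbon. The genes that fell had a median level of 13.3 TPM on succinate and 43.6 TPM without carbon.

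The whole distribution was shifted downwards in TPM. Across all tested genes the median log2 difference was -0.39, the lower and upper quartiles were -0.93 and 0.10, and the outer 5% on each side began at -2.17 and 1.25. TPM are shares of a library, so a fall of many genes and a rise of a few abundant ones cannot be told apart on this scale. After median-ratio scaling, which sets the typical gene to no change, the median was -0.01 and 842 genes were higher and 987 lower. The genes that rose thus made up 23.6% of the calls in TPM and 46.0% after scaling. Of the 539 genes that rose in TPM, 531 were also called higher after scaling, and of the 1742 that fell 987 were also called lower. Quantile normalization gave 927 higher and 938 lower.

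In TPM, large responses were mostly falls. Of the genes called in TPM, 9 rose and 38 fell by at least 4 on the log2 scale, which is a change of at least 16-fold on the TPM + 1 scale. A further 28 rose and 91 fell by 3 to 4, and 115 rose and 366 fell by 2 to 3. The other 387 that rose and 1247 that fell lay between 1 and 2. Median-ratio scaling made the sides more even, with 12 that rose and 20 that fell by at least 4, 51 that rose and 55 that fell by 3 to 4, and 175 that rose and 216 that fell by 2 to 3. Without replicate 3 on succinate, 548 genes rose and 1378 fell in TPM, and past 4 there were 9 that rose and 32 that fell. In 6 further fits, each without 1 of the 6 libraries, 374 of the 539 genes that rose and 1133 of the 1742 that fell were called every time. No called gene was called in the other direction in any of them.

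**Figure D1:**
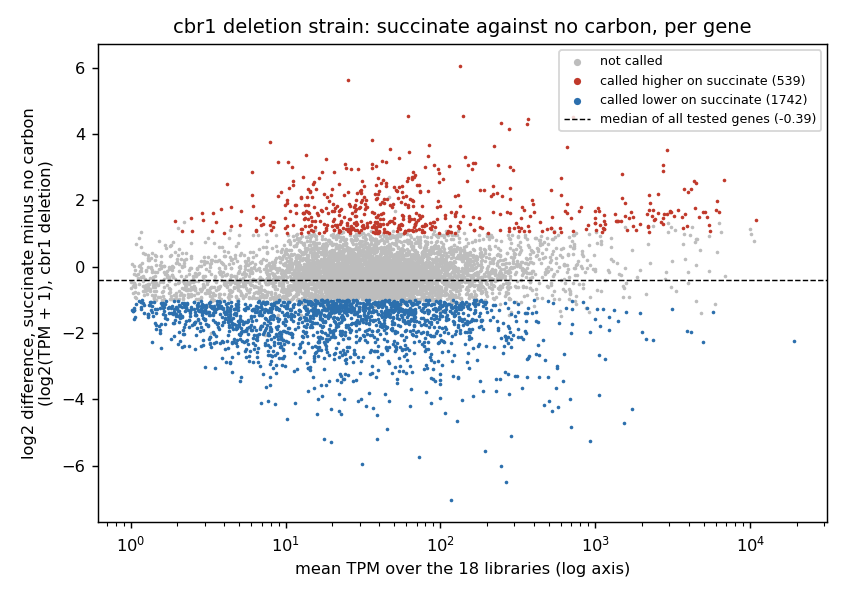
Each point is 1 of the 7938 tested genes, with its mean TPM over the 18 libraries on a log axis and its log2 difference, succinate minus no carbon, in the deletion strain. The 539 genes called higher extend to a log2 difference of 6.06 and the 1742 called lower to -7.05, and the dashed median of all tested genes lies at -0.39.

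The direction of the response varied with how abundant a gene was. Classes of abundance were set by the mean over all 18 libraries, 12 of which had a carbon source and 6 of which are compared here. Genes high with carbon thus enter the upper classes more readily, and genes high only without carbon the lower ones. Genes that averaged 1000 TPM or more over the 18 libraries numbered 161, and 74 of them (46.0%) rose while 23 (14.3%) fell. Their median log2 difference was 1.06, against -0.39 for all tested genes. Rare genes, of 1 to 10 TPM, went the other way, and of these 1299 genes 38 (2.92%) rose and 547 (42.1%) fell, with a median of -0.84. Between these, 324 rose and 918 fell of the 5263 genes at 10 to 100 TPM, and 103 rose and 254 fell of the 1215 genes at 100 to 1000 TPM. After median-ratio scaling the abundant class had 74 higher and 9 lower, and the rare class had 48 higher and 346 lower. The middle classes turned under that scaling, with 551 higher and 501 lower at 10 to 100 TPM and 169 higher and 131 lower at 100 to 1000 TPM. Quantile normalization, which forces the same distribution on each library, left 57 higher and 28 lower among the abundant genes, with a median of 0.70. It left 107 higher and 187 lower among the rare genes, with a median of -0.06. The count of 74 abundant genes was 43 without replicate 3 on succinate and 43 without replicate 1 in no carbon, and the 23 that fell were then 10 and 14.

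The classes were also set by wild type libraries, a choice made after seeing the data. Levels in these libraries do not enter the deletion strain's log2 difference, though they enter the spread behind the calls. Taken by the mean of the wild type's succinate and no carbon libraries, 163 genes reached 1000 TPM, of which 76 (46.6%) rose and 25 (15.3%) fell in the deletion strain, with a median log2 difference of 1.11. Taken by the wild type's no carbon libraries alone, 168 genes did, of which 56 (33.3%) rose and 46 (27.4%) fell, with a median of 0.14. In TPM the majority that rose among abundant genes was thus small when the class came from libraries without carbon. After median-ratio scaling that class had 53 higher and 25 lower, with a median of 0.54. Genes high without carbon enter it more readily, as genes high with carbon do the class set by all 18 libraries. By the wild type's no carbon libraries, 1196 genes were rare, at 1 to 10 TPM, of which 86 (7.19%) rose and 395 (33.0%) fell. At 10 to 100 TPM 17.4% fell and at 100 to 1000 TPM 29.6%. Falls were thus less concentrated among rare genes than in the classes set by all 18 libraries.

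**Figure D2:**
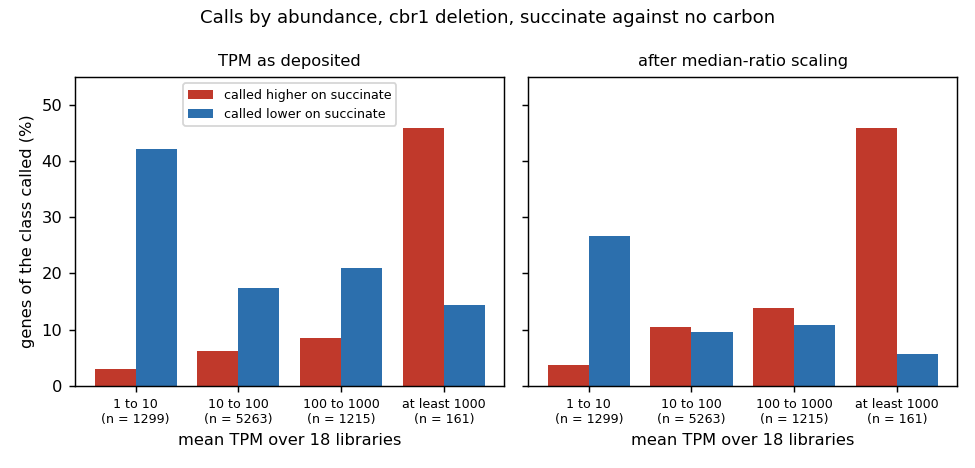
The bars give the percentage of genes in each class of mean TPM that were called higher or lower on succinate than without carbon in the deletion strain, in TPM as deposited and after median-ratio scaling, with the number of genes per class below. In the class of at least 1000 TPM 46.0% were called higher in both panels, while the share called lower in the class of 1 to 10 TPM was 42.1% in TPM and 26.6% after scaling.

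As a description, since their levels on succinate helped to choose them, the 161 abundant genes took 49.1%, 48.2% and 55.6% of the TPM of the deletion strain's succinate libraries, against 35.15%, 37.2% and 44.2% without carbon, so the groups did not overlap. In the wild type they took 56.4%, 57.6% and 68.0% on succinate, against 36.8%, 39.9% and 51.0% without carbon, again with no overlap. The 168 genes chosen by the wild type's no carbon libraries took 46.3%, 45.7% and 51.8% in the deletion strain on succinate, against 36.1%, 38.2% and 47.4% without carbon, and these groups overlapped.

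The genes called higher or lower were then followed through each library, as a description, since they had been chosen by a difference between 6 of these. The 539 genes that rose took 29.7%, 30.3% and 39.4% of all TPM in the succinate libraries of replicates 1 to 3, against 7.79%, 9.68% and 14.3% without carbon. The 1742 genes that fell took 9.91%, 11.7% and 5.70% on succinate, against 33.4%, 31.0% and 32.2% without carbon. Replicate 3 was thus the succinate library with most of its TPM in genes that rose and least in genes that fell. It was the lowest of the 3 succinate libraries for 1113 of the 1742 genes (63.9%), whereas replicate 1 was the highest for 312 of the 539 (57.9%). Replicate 2 was the farthest out for 88 (5.05%) of the genes that fell and 61 (11.3%) of those that rose. Over all tested genes the median difference from the no carbon mean was -0.25, -0.34 and -0.60 in succinate replicates 1 to 3, so the library farthest out for the falling genes was also the one with the largest downward shift of the typical gene. The part of that shift in the result was not tested.

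Libraries outside the difference that chose these genes gave the following values. They did enter the filter on mean TPM and the spread behind the calls, so they are not fully separate from the choice. The 539 genes took 37.9%, 39.6% and 40.9% of TPM in the wild type on succinate, against 11.5%, 15.7% and 24.9% in the wild type without carbon. The 1742 genes took 4.78%, 5.67% and 11.3% in the wild type on succinate, against 28.7%, 26.9% and 25.8% without carbon. On cellobiose the deletion strain stood between its own other media. The genes were chosen for their difference between those other media, which by itself favours such a middle place. There the 539 genes took 19.5%, 19.1% and 25.7% and the 1742 genes 18.6%, 19.0% and 13.8%. The wild type on cellobiose had 36.5%, 35.8% and 30.8% of its TPM in the 539 genes, each below its values on succinate. It had 5.56%, 5.69% and 5.78% in the 1742 genes, within the range of its values on succinate. By the median log2 difference from its no carbon mean, the 539 genes were higher on cellobiose. That median was 1.33, 1.31 and 1.21 on cellobiose, against 0.98, 1.07 and 0.20 on succinate.

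**Figure D3:**
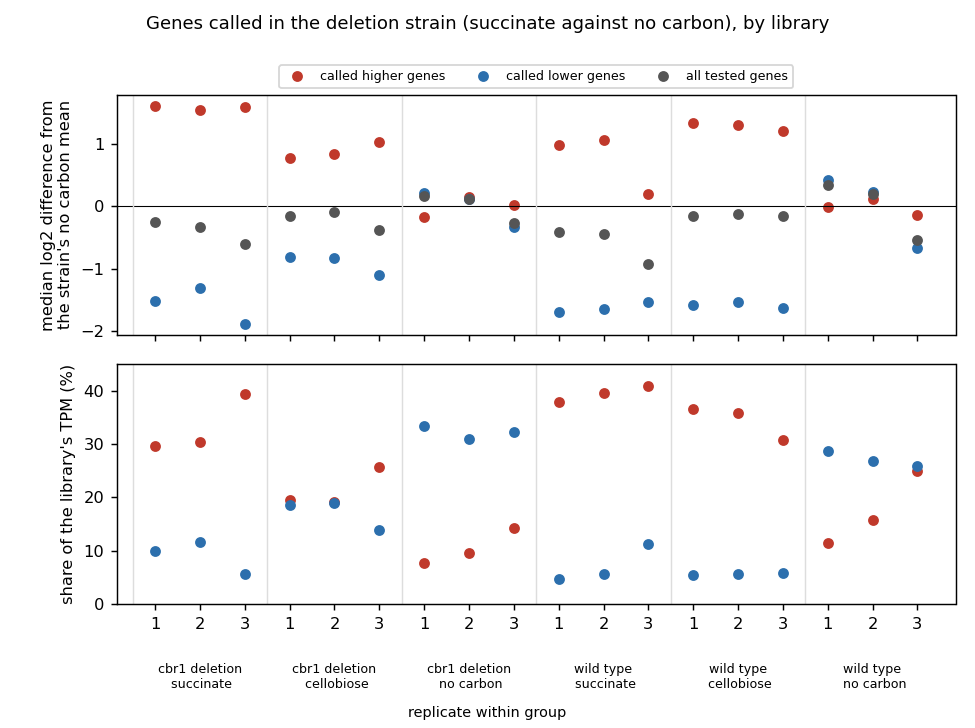
The upper panel gives, for each of the 18 libraries, the median log2 difference from the mean of the same strain's no carbon libraries over the 539 genes called higher, the 1742 called lower and all tested genes. The lower panel gives the share of the library's TPM held by the 539 and the 1742 genes in percent, where the deletion strain on cellobiose (19.1% to 25.7% and 13.8% to 19.0%) lies between its succinate and no carbon libraries. The way the genes were chosen favours that middle place.

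The genes with the largest responses were RTO4_15565 and RTO4_8723, which rose, and RTO4_8600 and RTO4_11355, which fell. They are the outermost of the called genes, among those that averaged 10 TPM or more on succinate or without carbon and whose libraries did not overlap.

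RTO4_8723 was high in every succinate library of the deletion strain. It was at 70.8, 56.0 and 86.8 TPM on succinate in replicates 1 to 3, against 0.246, 0.601 and 0.449 TPM without carbon. The means were 71.2 ± 15.4 and 0.432 ± 0.178 TPM (SD, n = 3 each), which gave a log2 difference of 5.64 with SE 0.44 (limma adjusted p = 2.98e-08). No other medium brought it as high in this strain, with 5.17, 6.39 and 3.91 TPM on cellobiose. In the wild type it was at 63.9, 82.6 and 14.0 TPM on succinate, against 0.944, 0.807 and 0.111 TPM without carbon, and the log2 difference there was 4.78 ± 0.44 (SE; limma adjusted p = 2.91e-07).

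RTO4_15565 had the largest rise but uneven values. It was listed at 272, 329 and 105 TPM on succinate, against 0, 30.9 and 0 TPM without carbon. All succinate libraries were above all no carbon libraries, and the log2 difference was 6.06 with SE 1.33 (limma adjusted p = 0.00145). The size rests on the 2 libraries listed at 0 and on the pseudocount, and it was 4.49 with a pseudocount of 5 TPM and 8.28 with one of 0.1 TPM. With array weights, whose estimate stopped before it converged, it was 4.08. Cellobiose libraries of the deletion strain held 20.5, 177 and 128 TPM. The wild type held 186, 95.9 and 38.5 TPM on succinate, against 88.0, 53.2 and 0 TPM without carbon, and this difference was not called (2.41 ± 1.33, SE; limma adjusted p = 0.154). Without the library listed at 0 the wild type difference was 0.37.

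RTO4_8600 fell most. It was at 1.33, 1.90 and 2.18 TPM on succinate in the deletion strain, against 345, 416 and 345 TPM without carbon. The means were 1.80 ± 0.430 and 368 ± 40.9 TPM (SD, n = 3 each), which gave a log2 difference of -7.05 with SE 0.38 (limma adjusted p = 1.88e-10). Its level was as low on cellobiose, at 1.19, 2.39 and 1.13 TPM, and between succinate and cellobiose the log2 difference was 0.15 with a 95% interval of -0.64 to 0.93. The wild type held 1.28, 0.221 and 0 TPM on succinate, against 431, 363 and 190 TPM without carbon. Both strains thus had this gene at 190 TPM or more without carbon and at most 2.39 TPM in any library with succinate or cellobiose.

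RTO4_11355 was high without carbon in a similar way, though with more spread. It was at 4.52, 12.8 and 2.68 TPM on succinate, against 422, 843 and 566 TPM without carbon. The means were 6.67 ± 5.40 and 610 ± 214 TPM (SD, n = 3 each), and the log2 difference was -6.49 ± 0.71 (SE; limma adjusted p = 1.52e-06). On cellobiose the deletion strain held 8.17, 7.06 and 3.71 TPM. In the wild type it was at 4.29, 17.7 and 102 TPM on succinate, against 419, 758 and 1591 TPM without carbon. Wild type replicate 3, the highest in both media, lay far above the others on succinate.

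A few genes were nearly silent in one medium and present in the other. Those under 1 TPM in all 3 no carbon libraries and at or above 10 TPM in all 3 succinate libraries numbered 2, RTO4_8723 and RTO4_13632, the second of them named after its values were seen. RTO4_13632 was at 27.5, 15.9 and 17.7 TPM on succinate, against 0.370, 0.413 and 0.914 TPM without carbon (log2 difference 3.75, limma adjusted p = 2.42e-05). In the opposite direction there were 4 genes, RTO4_9104, RTO4_12260, RTO4_14478 and RTO4_10300, all but the last named after their values were seen. Of these, RTO4_9104 was at 0, 0.880 and 0.121 TPM on succinate, against 28.1, 52.3 and 81.0 TPM without carbon. The wild type held 0, 0.050 and 1.33 TPM of it on succinate, against 68.9, 51.2 and 68.8 TPM without carbon.

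Whether the response depended on the strain was asked by setting it beside that of the wild type. The log2 differences of the strains share no library. Their calls share a spread estimated over all 18 libraries, so genes with little spread are favoured for a call in both. Across the 7938 tested genes the responses of the deletion strain and the wild type had Pearson's r = 0.888, a description over genes that are not independent. Of the genes that rose in the deletion strain 191 were also called higher in the wild type, which was 35.4% of the 539 and 81.6% of the 234 that the wild type called. Of those that fell 1517 were also called lower, 87.1% of the 1742 and 69.2% of the 2191 that the wild type called. Over all tested genes 30.5% were called in the wild type, 2.95% higher and 27.6% lower. No gene was called in opposite directions. The wild type had fewer genes that rose, but its count of 234 rested on its succinate libraries, and was 148, 125 and 453 without replicates 1, 2 and 3. Its 2191 genes that fell became 3317 without its replicate 3 in no carbon. The shared 191 became 110 with replicate 2 of the wild type on succinate left out. In fits of only the libraries compared, each strain having its own spread, 120 genes that rose and 1290 that fell were shared.

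Scaling changed this picture for the genes that rose. After median-ratio scaling 842 genes rose in the deletion strain and 693 in the wild type, and 502 were shared, 59.6% of the deletion strain's list and 72.4% of the wild type's. Of the 987 that fell in the deletion strain and the 942 in the wild type, 722 were shared, 73.1% and 76.6% of these lists. With replicate 3 of the deletion strain on succinate left out, the one most like the wild type on succinate, r was 0.821. The shared genes were then 148 that rose and 1198 that fell. In that fit 1 gene was called in opposite directions.

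Gene by gene, the 1742 genes that fell in the deletion strain had median log2 differences of -1.55 there and -1.63 in the wild type. The 539 that rose had 1.55 in the deletion strain and 0.80 in the wild type. These were chosen for their size in the deletion strain, which raises its value. Taken from the other side, the 234 genes that rose in the wild type had medians of 1.67 in the deletion strain and 1.37 in the wild type, and the 2191 that fell had -1.32 in the deletion strain and -1.51 in the wild type. The medians over all tested genes were -0.39 in the deletion strain and -0.59 in the wild type.

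The difference between the strains' responses was tested directly by the interaction term. Of the 7938 genes 0 were called by limma at an adjusted p under 0.05, and 459 (5.78%) had an unadjusted p under 0.05. The fit with array weights, which gives noisier libraries less weight, called 1068. The estimate of these weights stopped before it converged, which limits each value given with them. The count of 0 became 7 with the wild type's replicate 1 in no carbon left out and 3 with its replicate 3 on succinate left out. The typical 95% interval of a gene's difference between strains reached 0.99 to either side on the log2 scale, so differences short of about a doubling were not resolved. This interval is not corrected for the number of genes, so larger differences could miss the call as well. RTO4_16096, given below, differed by 2.02 (95% interval 0.84 to 3.20) and was not called (limma adjusted p = 0.282). Among the 4 genes with the largest responses, the difference between strains (deletion minus wild type) was 0.86 for RTO4_8723 (95% interval -0.45 to 2.17), 3.66 for RTO4_15565 (-0.27 to 7.58), 0.74 for RTO4_8600 (-0.37 to 1.85) and -1.29 for RTO4_11355 (-3.37 to 0.80). With array weights those of RTO4_15565 (3.19) and RTO4_8600 (1.03) were called. Leaving out replicate 3 of the wild type on succinate brought RTO4_8723 to 0.09 and RTO4_11355 to -0.16. The 348 genes called higher in the deletion strain and not called in the wild type are therefore not shown to differ between strains. Their median log2 difference was 1.42 in the deletion strain and 0.50 in the wild type. Of these 348 genes, 208 (59.8%) had an unadjusted limma p under 0.05 for the interaction. Choosing genes by a call in a single strain favours this. Among the 225 that fell in the deletion strain and were not called in the wild type, 10 (4.44%) had such a p.

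**Figure D4:**
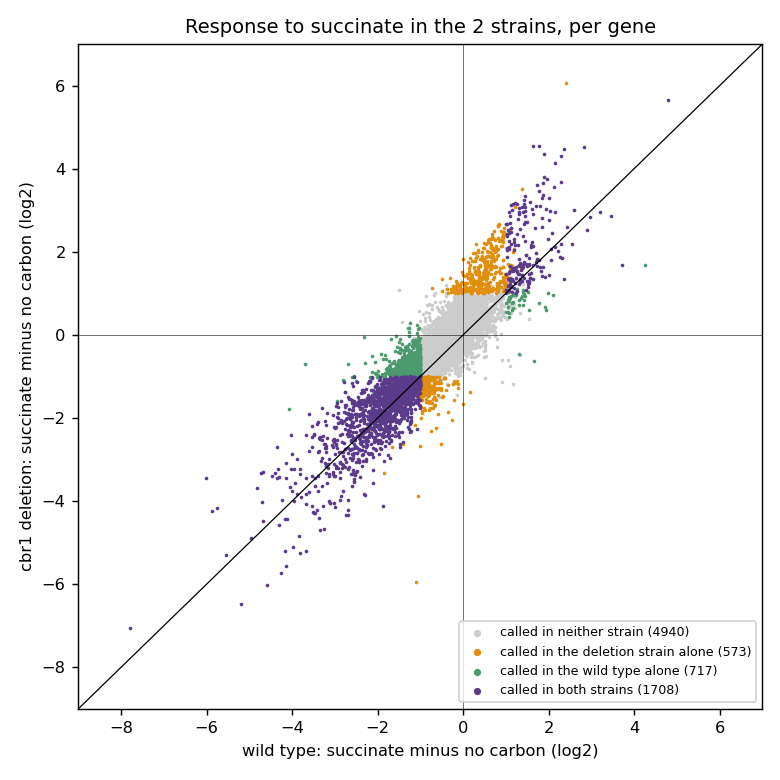
Each point is 1 tested gene, with the log2 difference of succinate minus no carbon in the deletion strain on the vertical axis and in the wild type on the horizontal axis. Genes called in both strains (1708) lie along the line of equal response, 573 were called in the deletion strain alone and 717 in the wild type alone.

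Part of the response differed from that to cellobiose within the deletion strain. Direct comparison of succinate with cellobiose called 454 genes higher (5.72% of those tested) and 660 lower (8.31%) on succinate. Together these were 1114 genes (14%), a total that single libraries moved. It was 343 without replicate 3 on succinate, 354 without replicate 1 on cellobiose and 558 without replicate 2 on cellobiose. The 454 higher genes were 286 and 213 without replicates 2 and 3 on succinate, and 191 and 293 without replicates 1 and 2 on cellobiose. The 660 lower genes were 130 without replicate 3 on succinate, and 163 and 265 without replicates 1 and 2 on cellobiose. Median-ratio scaling gave 653 higher and 525 lower, which turned the majority. Cellobiose against no carbon called 17.3% of the genes, 367 of them higher (4.62%) and 1003 lower (12.6%), a comparison that uses the same no carbon libraries as that of succinate. Over the 539 genes that rose on succinate the median log2 difference was 1.55 for succinate and 0.86 for cellobiose, each against no carbon. Over the 1742 that fell it was -1.55 for succinate and -0.91 for cellobiose. Both lists were chosen for their size on succinate against these no carbon libraries, which enlarges the succinate value. The medians over all tested genes were -0.39 for succinate and -0.21 for cellobiose.

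Genes that stood apart on succinate from both other media were taken as those called in the same direction against no carbon and against cellobiose, with an average of 10 TPM or more in 1 of the 3 groups and with no overlap of the succinate libraries with the other 6. Of the 7938 tested genes 162 were above both media in this way and 325 below both. Both comparisons use the same 3 succinate libraries, so their calls are not independent. Calls alone, without the last 2 conditions, gave 169 above and 401 below. Without replicate 1 on cellobiose these became 85 above and 111 below, and the 401 below became 80 without replicate 3 on succinate and 170 without replicate 2 on cellobiose. Median-ratio scaling gave 332 above and 254 below. The farthest above both were RTO4_8723, given before, and RTO4_16096, and the farthest below both were RTO4_10300 and RTO4_15960.

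RTO4_8723 was 3.55 ± 0.44 (SE) higher on succinate than on cellobiose on the log2 scale (limma adjusted p = 8.57e-05).

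RTO4_16096 was an abundant gene of the succinate libraries in the deletion strain. It was at 741, 1098 and 708 TPM on succinate, 72.7, 157 and 46.1 TPM on cellobiose and 42.0, 65.9 and 24.9 TPM without carbon. The lowest succinate library was well above the highest of the other 6. The log2 difference was 4.31 ± 0.40 against no carbon (SE; limma adjusted p = 2.88e-07) and 3.35 ± 0.40 against cellobiose (SE; limma adjusted p = 5.47e-05). In the wild type it was at 761, 835 and 412 TPM on succinate, 418, 442 and 332 TPM on cellobiose and 112, 133 and 149 TPM without carbon. The response to succinate was 2.02 larger in the deletion strain than in the wild type (95% interval 0.84 to 3.20), which did not pass the correction (limma adjusted p = 0.282), and it was called with array weights alone among the settings tried.

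RTO4_15960 behaved in the opposite way and was low on succinate alone in the deletion strain. It was at 2.41, 2.79 and 0.389 TPM on succinate, 49.4, 46.6 and 22.7 TPM on cellobiose and 71.1, 74.0 and 32.9 TPM without carbon. The log2 difference was -4.44 ± 0.44 against no carbon (SE; limma adjusted p = 5.94e-07) and -3.88 ± 0.44 against cellobiose (SE; limma adjusted p = 4.72e-05). Wild type levels were low on both carbon sources, at 0.618, 0.856 and 0.886 TPM on succinate and 0, 0 and 0.144 TPM on cellobiose, against 50.0, 39.9 and 14.7 TPM without carbon. In the deletion strain the cellobiose libraries overlapped those without carbon.

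RTO4_10300 was listed at 0 in all 3 succinate libraries of the deletion strain. It was at 49.3, 8.37 and 43.5 TPM on cellobiose and 67.7, 36.5 and 92.3 TPM without carbon. The call against no carbon (limma adjusted p = 0.00214) held in every setting tried. That against cellobiose (limma adjusted p = 0.0239) was lost in 5 settings, with adjusted p up to 0.435. The wild type held 36.5, 0 and 16.2 TPM on succinate, 6.73, 0 and 16.1 TPM on cellobiose and 144, 42.3 and 0 TPM without carbon. Each wild type group thus held 1 library listed at 0 beside others at 6.73 TPM or above, and the wild type response of this gene was not called (log2 difference -1.10, limma adjusted p = 0.539). That response was called without replicate 3 of the wild type in no carbon (-3.20, limma adjusted p = 0.0272). It ran up to 0.46 with other libraries left out. With array weights, whose estimate stopped before it converged, it was called at -5.05 (limma adjusted p = 8.78e-09).

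**Figure D5:**
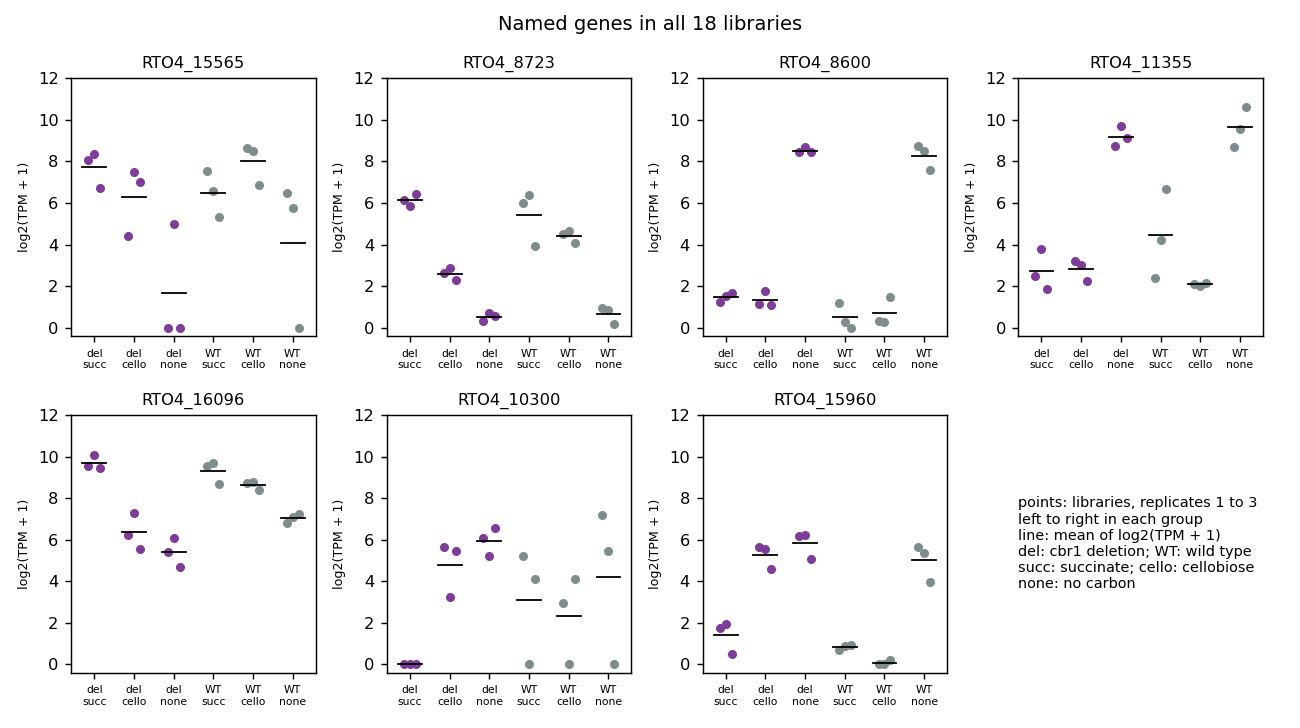
Values of the 7 named genes are plotted as log2(TPM + 1) in each of the 18 libraries, with the group mean on that scale as a line, for the deletion strain and the wild type on succinate, on cellobiose and without carbon. Among the deletion strain's media RTO4_8723 and RTO4_16096 are highest and RTO4_15960 and RTO4_10300 lowest on succinate, and RTO4_8600 and RTO4_11355 are high in the no carbon libraries of both strains.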

How the data were processed

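The deposited values are TPM for 8484 genes in 18 libraries, scaled by the authors to the same total in each column. Salmon 1.10.0 is named in the submitters' processing notes. Build, annotation and transcript lengths are not stated there or in the labels, and depth is unknown. All 18 columns were matched to samples by library name. Libraries were poly-A enriched, per the labels' protocols. Biological triplicates are stated, but not separate cultures or days, so p-values measure the spread between these libraries.

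Values were transformed to log2(TPM + 1), which understates changes of rare genes. Tested were 7938 of 8484 genes, those averaging 1 TPM or more. In R 4.3.3, limma 3.58.1 fitted 1 mean per group to all 18 libraries (6 groups), with a trend of the spread. It gave 5 comparisons, each adjusted by Benjamini-Hochberg over all tested genes. An exact permutation test of 3 against 3 cannot go below p = 0.1. Genes named are the 2 highest and the 2 lowest by log2 difference, or by the smaller of 2 log2 differences, under the conditions stated beside them. Members, lists and comparisons were chosen with earlier results of these data known.

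The labels number the replicates alike in all groups. Deviations from the group means correlated by 0.25, -0.04 and 0.29 between same-numbered succinate and no carbon libraries of the deletion strain, and by 0.22, 0.09 and 0.20 between its succinate and cellobiose libraries. Between succinate and cellobiose all 6 libraries correlated best with their own number, though replicate 2 stayed under 0.1. In the labels such libraries share only a number. For the wild type on succinate and without carbon (0.31, 0.15 and 0.24) and the deletion strain on cellobiose and without carbon (0.27, 0.11 and 0.37) each was above 0.1, and these were taken as paired. Of the latter's 6 libraries 5 correlated best with their own number. Replicate 2 was at 0.11 there and at 0.09 between succinate and cellobiose, so the cut of 0.1 parts these cases by a narrow margin. The pairing comes from the data, since the labels name no shared day or batch. The main fit held no block for replicate number, so the calls and p-values given for these groups leave the pairing out. With such a block in the fit of 18 libraries, the wild type's 2425 calls became 2464. The 1370 calls for cellobiose against no carbon in the deletion strain became 1439.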

Additional observations from a re-analysis of the deposited data

How the results depend on the processing

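For succinate against no carbon in the deletion strain, 2281 genes were called, and every setting tried kept the count within 1.5 times except treat, limma's test for a log2 difference beyond 1, with 484. Leaving out each library gave 1830 to 2537. The treat test called 394 of the wild type's 2425, 311 of the 1370 for cellobiose against no carbon and 19 of the 1114 for succinate against cellobiose. Quantile normalization called 1549 in the wild type. Leaving out each library gave 1753 to 3545 in the wild type, 1068 to 1382 for cellobiose against no carbon and 343 to 1467 for succinate against cellobiose. The interaction, with 0 calls, gave 1 with a pseudocount of 5 TPM and 1068 with array weights, whose estimate stopped before it converged, and 0 to 7 with a library left out (7 without the wild type's replicate 1 in no carbon, 3 without its replicate 3 on succinate). Genes below both other media on succinate, 401 by calls, were 240 with a pseudocount of 5 TPM. The wild type's 234 genes that rose were 141 in a fit of its own 6 libraries and 399 with array weights, and the 191 shared with the deletion strain were 120 in fits of the compared libraries. The causes were not tested.

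With a block for replicate number in the fit of 18 libraries the main count was 2314, and 2305 with the block in the 6 libraries alone. The block moved none of the 5 counts by over 1.5 times. Of the 6 libraries, 4 correlated best with their own number, against 6 of 6 for succinate and cellobiose in the deletion strain.

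Of 176 refits of the calls of the named genes in the deletion strain, 171 kept the call, and the 5 others were RTO4_10300 against cellobiose. Directions that turned were all of uncalled values. They were the wild type response of RTO4_10300 (-1.10; -3.20 to 0.46 with a library left out, 0.39 without replicate 1 of the wild type in no carbon) and the differences between strains of RTO4_15960 (-0.27; 0.17 with array weights, -0.65 to 0.24 with a library left out, 0.18 without deletion replicate 3 on succinate) and RTO4_8723 (0.86; -0.25 with array weights).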
